A study of Mus musculus with 93 samples.

Results

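These 9 genes encode the accessory subunits of variant Polycomb repressive complex 1 (PRC1) described here: Rybp, Yaf2, Kdm2b, Bcor, Bcorl1, L3mbtl2, E2f6, Mga and Auts2. They were taken by gene name from the RNA-seq count tables, and all 9 were found among the 33924 gene names of each table. All 9 also passed the filter on low counts in every comparison, with at least 86 counts in each library.

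PRC1 places ubiquitin on histone H2A through the RING proteins Ring1 and Ring1b (gene Rnf2). Each complex is built on 1 PCGF protein. In canonical PRC1 the RING dimer joins a CBX protein that reads methylated histone H3. In variant PRC1 it joins Rybp or its paralog Yaf2 in place of CBX, and further subunits decide where the complex binds. Kdm2b, Bcor and Bcorl1 belong to the complex of Pcgf1 (PRC1.1), where the zinc finger of Kdm2b binds unmethylated CpG islands. L3mbtl2, E2f6 and Mga belong to the complex of Pcgf6 (PRC1.6), where Mga with Max and E2f6 with its dimer partner Tfdp1 bind DNA. Auts2 belongs to the complexes of Pcgf3 and Pcgf5. In embryonic stem cells, variant PRC1 deposits most ubiquitin on H2A, and PRC1.6 is known for the silencing of germline genes.

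The RNA came from mouse R1 embryonic stem cells grown in serum with leukaemia inhibitory factor. Set 1 holds 3 wild type libraries and 3 libraries of Ring1b I53A cells, whose mutation lies in the catalytic RING domain. Set 2 holds 3 wild type libraries and 3 libraries labelled H1b/c/d/e-QKO, a quadruple knockout of linker histone genes. Neither the number of clones nor the separation of cultures is given in the labels, so p-values reflect only how far these libraries vary, and that variation may be technical. The series also covers Rybp/Yaf2 double knockout cells, whose assays were not analysed here. The comparisons ask how the RNA of these subunits stands when Ring1b is mutated and when linker histone genes are knocked out.

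Libraries held between 12585621 and 23378930 counts. In set 1 the replicate 3 tables of both groups carry another style of name than the others and are the shallowest. Rnf2 RNA stood at 182, 179 and 166 CPM (counts scaled to a common library size by TMM over all 12 libraries) in wild type and at 93.5, 91.7 and 81.0 in I53A, which does not check a point mutation. Neither Hist1h1b nor Hist1h1c RNA was called lower under the label QKO. Counts of Hist1h1b were 4, 9 and 2 in wild type against 62, 53 and 72 in the libraries so labelled. Those of Hist1h1c were 143, 173 and 205 against 174, 129 and 202. Hist1h1d and Hist1h1e had at most 15 counts in any library of set 2. RNA counts do not show whether the proteins are lost, so they do not check the knockout. The group is therefore called libraries labelled QKO. Pluripotency markers summed to at least 4850 CPM over 9 genes in every library. Levels are not compared between the sets, since some PRC1 partners differed widely between them: Hdac1 ranged from 5.25 to 10.7 CPM in set 1 and from 218 to 260 CPM in set 2, and Cbx3 from 5.33 to 10.0 and from 149 to 188 CPM.

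Per kilobase of counted exon, the DNA-binding scaffold Mga led in wild type with 32.9 ± 4.08 CPM per kb in set 1 and 31.2 ± 1.84 in set 2 (mean ± SD, n = 3 here and below). The order of genes on this scale is approximate, since the length takes in all annotated exons, whether or not they are used. Reads of single genes may also be lost in set 1, where Hdac1 and Cbx3 were low, which was not tested. L3mbtl2, a reader protein of PRC1.6, followed in set 1 with 29.0 ± 1.36 and overlapped Mga, and Rybp came next with 21.8 ± 0.873. Bcor, Kdm2b and E2f6 lay between 8.28 and 10.3 CPM per kb in wild type of set 1, Yaf2 and Bcorl1 at 3.37 ± 0.841 and 3.17 ± 0.767, and Auts2 at 1.07 ± 0.426. Of these neighbours Bcor with Kdm2b and Yaf2 with Bcorl1 overlapped. In I53A the order changed at the top, with L3mbtl2 at 24.6 ± 0.762, Rybp at 23.8 ± 2.12, Mga at 19.3 ± 3.37 and E2f6 at 17.7 ± 0.235 CPM per kb, each overlapping the next. In wild type of set 2, E2f6 at 15.2 ± 0.547 stood above Kdm2b (7.22 ± 0.467), Yaf2 (5.17 ± 0.549), Bcor (5.16 ± 0.193), Auts2 (1.21 ± 0.0279) and Bcorl1 (1.08 ± 0.0197). In the libraries labelled QKO, Bcorl1 stood at 3.50 ± 0.292 CPM per kb and overlapped Bcor at 3.69 ± 0.280.

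**Figure D1:**
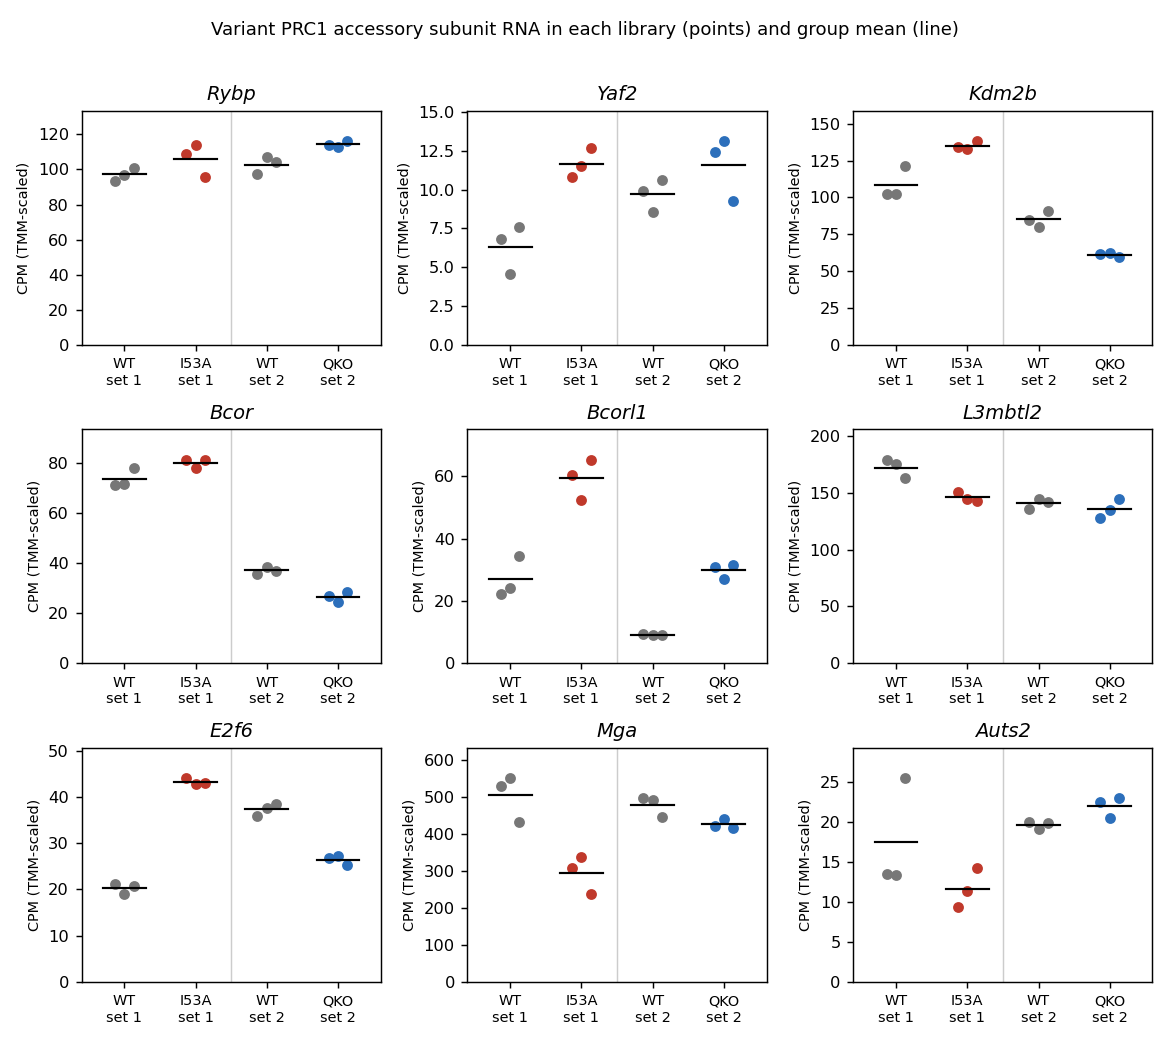
TMM-scaled CPM (y axis, from 0) of the 9 subunit genes in each of the 12 libraries, by group (x axis). Points are libraries and lines are means of 3. E2f6 lies at 19.0 to 21.1 CPM in wild type and 42.9 to 44.0 in I53A of set 1, and at 35.8 to 38.4 and 25.2 to 27.3 in set 2.

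In I53A cells, E2f6, Bcorl1, Yaf2 and Kdm2b rose and Mga and L3mbtl2 fell, while Rybp, Bcor and Auts2 did not pass the test. The log2 fold changes ran from -0.79 for Mga to 1.13 for Bcorl1. EdgeR's quasi-likelihood test with Benjamini-Hochberg adjustment called 4 of the 9 higher and 2 lower, where it called 18.1% of all 15536 genes tested higher and 17.4% lower (35.5% in all). The median log2 fold change of the members was 0.11, and that of all genes -0.001. In bulk RNA, fewer cells of a type and less RNA per cell cannot be told apart. Markers of primitive endoderm, a yolk sac lineage, moved with the genotype: 12 of 12 rose, and their summed level was 249 to 256 CPM in wild type and 3020 to 3100 CPM in I53A, with none at 0. Of 9 pluripotency markers, Nanog, Sox2, Zfp42 and Esrrb fell and Tdgf1 rose, and their sum was 5660 to 6340 CPM in wild type and 4850 to 5310 CPM in I53A, without overlap. Mitochondrial genes held 3.35% to 3.52% of counts in wild type and 4.06% to 4.40% in I53A. The part of these shifts in the changes below was not tested. Of 10 fibroblast markers, 4 rose among 6 tested, with sums of 1390 to 1450 and 1340 to 1510 CPM that are mostly Fn1, and Postn, Lum and Dcn had at most 2 counts in any library.

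E2f6, a repressive member of the E2F family (chromosome 12, 16817771 to 16833549, plus strand, mm9), read 21.1, 19.0 and 20.8 CPM in wild type against 44.0, 42.9 and 43.1 CPM in I53A. All I53A libraries lay above all wild type libraries. The log2 fold change was 1.08 ± 0.09 (SE), with edgeR adjusted p = 7.53e-05, and stayed between 1.02 and 1.10 under every alternative run. The 250 bases before its annotated start hold 24 CpG pairs, where the median over all windows of this kind is 6. They are shown because E2f6 was the member that moved farthest in opposite directions in the 2 comparisons, from RefSeq (GRCm38.p6, chr12:16810715-16810964, plus strand), with capitals for the E2F letters GCGGGA read on either strand.
E2f6: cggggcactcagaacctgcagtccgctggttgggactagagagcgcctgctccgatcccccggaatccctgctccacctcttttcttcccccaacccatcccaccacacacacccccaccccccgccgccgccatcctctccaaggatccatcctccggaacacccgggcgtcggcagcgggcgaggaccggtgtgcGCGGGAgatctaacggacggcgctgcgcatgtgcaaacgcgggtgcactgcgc
The E2F letters start 53 bases before the start, and 16.9% of all 32851 windows of this length hold them on either strand. They contain a CpG, so that share is not a like background for a window with 24 CpG pairs. A match of letters is a description and not a binding site.

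Mga, the MAX-binding scaffold of PRC1.6 (chromosome 2, 119722964 to 119795317, plus strand), read 530.0, 551.4 and 433.8 CPM in wild type against 309.4, 339.2 and 238.5 CPM in I53A. Replicate 3 was the lowest of both groups, and the groups did not overlap. Its log2 fold change was -0.79 ± 0.14 (edgeR adjusted p = 0.00323). L3mbtl2, which carries MBT repeats that bind histone tails (chromosome 15, 81494319 to 81518745, plus strand), read 179, 175 and 163 CPM in wild type against 151, 145 and 143 CPM in I53A. It fell by 0.25 ± 0.07 on the log2 scale (edgeR adjusted p = 0.0188). That call was lost on leaving out wild type replicate 1 or 2 or I53A replicate 1 or 2 (edgeR adjusted p from 0.0503 to 0.0877). Exons of Chadl cover 17.2% of its counted length, and reads there can be lost.

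Among the PRC1.1 subunits, Bcorl1, the X-linked paralog of the BCL6 corepressor Bcor (chromosome X, 45694535 to 45761226, plus strand), read 22.3, 24.1 and 34.4 CPM in wild type against 60.6, 52.4 and 65.3 CPM in I53A. Wild type replicate 3 stood above the other wild type libraries but below every I53A library. The log2 fold change was 1.13 ± 0.17 (edgeR adjusted p = 0.00187). Bcor itself (chromosome X, 11613866 to 11737481, minus strand) read 71.4, 71.7 and 78.2 against 81.3, 78.1 and 81.2 CPM. Its groups overlapped, and the difference of 0.11 (95% interval -0.07 to 0.28) did not pass the test (edgeR adjusted p = 0.312). Kdm2b, the CpG-binding demethylase (chromosome 5, 123320677 to 123465089, minus strand), read 102, 102 and 121 CPM in wild type against 134, 133 and 138 CPM in I53A. It rose by 0.31 ± 0.09 on the log2 scale (edgeR adjusted p = 0.0263), and this call was lost on leaving out any 1 library other than wild type replicate 3 (edgeR adjusted p from 0.0530 to 0.112).

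Of the paralogs that take the place of CBX, Yaf2 (chromosome 15, 93114709 to 93167366, minus strand) read 6.84, 4.54 and 7.56 CPM in wild type against 10.8, 11.5 and 12.7 CPM in I53A, without overlap. It rose by 0.87 ± 0.20 on the log2 scale (edgeR adjusted p = 0.0110). The more abundant Rybp (chromosome 6, 100178560 to 100237435, minus strand) read 93.4, 97.1 and 101 CPM against 109, 114 and 95.5 CPM. The I53A library of replicate 3 fell among the wild type values. The difference of 0.11 (95% interval -0.08 to 0.30) did not pass (edgeR adjusted p = 0.345), and on replicates 1 and 2 alone it was 0.21 (edgeR adjusted p = 0.00567), against -0.08 in the replicate 3 pair, which has no test.

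Auts2, which is known to turn its PRC1 complexes towards activation in neurons (chromosome 5, 131913205 to 133019214, minus strand), read 13.5, 13.3 and 25.4 CPM in wild type against 9.34, 11.3 and 14.2 CPM in I53A. Wild type replicate 3 stood far above the others, and the groups overlapped. The log2 fold change of -0.60 (95% interval -1.26 to 0.07) did not pass (edgeR adjusted p = 0.144). Without wild type replicate 3 it was -0.23 (edgeR adjusted p = 0.361), and on replicates 1 and 2 alone it was called at -0.39 (edgeR adjusted p = 0.0224), against -0.84 in the replicate 3 pair, which has no test. With the replicate number as a block in set 1, it was called at -0.55 ± 0.13 (edgeR adjusted p = 0.00131).

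**Figure D2:**
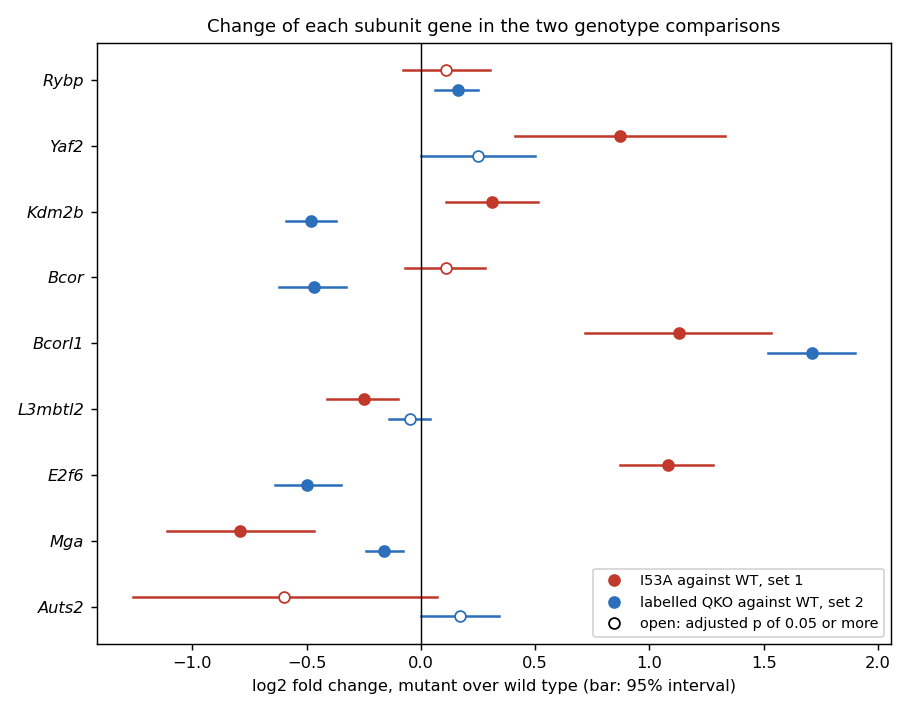
Log2 fold change (x axis) of the 9 subunit genes (y axis) in I53A against wild type of set 1 (red) and in libraries labelled QKO against wild type of set 2 (blue). Bars are 95% intervals and open points did not pass edgeR's test. Bcorl1 is called higher in both, and E2f6 and Kdm2b are called in opposite directions.

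In the libraries labelled QKO, Bcorl1 rose by 1.71 on the log2 scale, Rybp rose slightly, and E2f6, Kdm2b, Bcor and Mga fell. Yaf2, L3mbtl2 and Auts2 did not pass the test. EdgeR called 2 of the 9 higher and 4 lower, where it called 28.7% of all 15439 genes tested higher and 29.0% lower (57.7% in all). The median log2 fold change of the members was -0.05, and that of all genes -0.003. Of 10 primitive endoderm markers tested, 4 rose (Cubn 2.32, Pdgfra 1.34, Dab2 0.85 and Lama1 0.31 on the log2 scale) and Lamb1 fell (-0.24), while the sum over all 12 was 240 to 268 CPM in wild type and 252 to 265 CPM in these libraries, with none at 0 throughout a group. Of 9 pluripotency markers 5 rose and 3 fell, with sums of 7030 to 7140 and 8010 to 8140 CPM that did not overlap. Mitochondrial genes held 1.63% to 1.77% of counts in wild type and 1.91% to 2.01% here. Of 6 fibroblast markers tested 4 rose, such as Col1a2 (4.83 on the log2 scale), and Fn1 fell (-0.33). Their sums were 1890 to 2140 CPM in wild type and 1540 to 1680 CPM here. These sums are mostly Fn1 (means of 1940 and 1540 CPM). Postn, Lum and Dcn had at most 1 count in any library of the set. The part of these shifts in the results was not tested.

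Bcorl1 read 9.36, 9.21 and 9.02 CPM in wild type against 30.8, 27 and 31.6 CPM in the libraries labelled QKO. The spread within either group was far smaller than the gap between them. The log2 fold change was 1.71 ± 0.09 (edgeR adjusted p = 6.14e-22). Bcor read 35.8, 38.6 and 37.0 against 26.8, 24.4 and 28.4 CPM, and fell by 0.47 ± 0.07 on the log2 scale (edgeR adjusted p = 1.78e-07). The paralogs thus moved in opposite directions in this set. The 250 bases before the start of Bcorl1 are shown as those of the member that rose in both comparisons (RefSeq, GRCm38.p6, chrX:48341108-48341357, plus strand), with the E-box letters CACGTG, which Mga and Max are known to bind, in capitals.
Bcorl1: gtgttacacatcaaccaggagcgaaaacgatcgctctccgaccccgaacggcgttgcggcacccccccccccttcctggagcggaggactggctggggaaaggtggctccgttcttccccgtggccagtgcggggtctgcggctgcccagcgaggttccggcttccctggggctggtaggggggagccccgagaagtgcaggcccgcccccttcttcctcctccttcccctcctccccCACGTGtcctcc
The E-box starts 12 bases before the annotated start, and 6.02% of all windows hold one. Its letters contain a CpG, and this window holds 18 CpG pairs against a median of 6 over all windows, so that share is not a like background. Of the 9 genes, 6 have windows in the table and Bcorl1 is the 1 with an E-box, while E2f6 and Kdm2b hold the E2F letters. Kdm2b has 4 windows and holds these letters only in those that overlap each other, and not in the rest. Rybp, Yaf2 and Auts2 were not matched. The windows of the 6 matched genes hold between 12 and 38 CpG pairs.

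Per kilobase, Bcor RNA exceeded Bcorl1 RNA by 3.33 ± 0.573 times in wild type and 1.61 ± 0.147 times in I53A of set 1. In set 2 the ratio was 4.54, 4.96 and 4.85 in wild type against 1.03, 1.07 and 1.06 in the libraries labelled QKO. In both sets the mutant ratios lay below all wild type ratios. The ratio of Rybp to Yaf2 was 5.74, 8.97 and 5.62 in wild type against 4.24, 4.17 and 3.16 in I53A, also without overlap. In set 2 it was 4.50 ± 0.649 against 4.25 ± 0.881, with overlap. These ratios were chosen after the values were seen and carry no test.

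**Figure D3:**
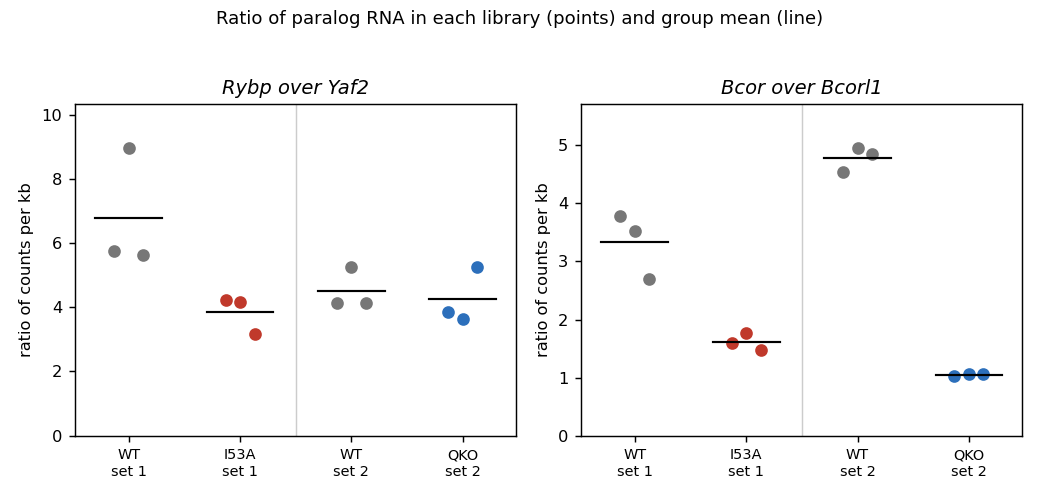
Ratio of counts per kilobase (y axis, from 0) of Rybp to Yaf2 (left) and of Bcor to Bcorl1 (right) in each of the 12 libraries, by group. Points are libraries and lines are means of 3. The Bcor to Bcorl1 ratio is near 1 in all 3 libraries labelled QKO and at least 2.69 in every wild type library.

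E2f6 read 35.8, 37.7 and 38.4 CPM in wild type of set 2 against 26.7, 27.3 and 25.2 CPM in the libraries labelled QKO. It fell by 0.50 ± 0.07 on the log2 scale (edgeR adjusted p = 3.91e-08). Kdm2b read 84.8, 80.2 and 91.1 against 61.6, 62.2 and 59.6 CPM, and fell by 0.48 ± 0.05 (edgeR adjusted p = 8.23e-11). Neither gene's groups overlapped. Mga read 499, 492 and 447 against 423, 440 and 418 CPM, a small fall of 0.16 ± 0.04 on the log2 scale (edgeR adjusted p = 0.000654), which was lost when all 12 libraries shared the spread (edgeR adjusted p = 0.278).

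Rybp read 97.3, 107 and 104 CPM in wild type against 114, 113 and 116 CPM in the libraries labelled QKO, and rose by 0.16 ± 0.05 on the log2 scale (edgeR adjusted p = 0.00385). That call was lost without wild type replicate 1 (edgeR adjusted p = 0.0540) and when all 12 libraries shared the spread (0.0840). The other 3 subunits did not pass the test. Yaf2 read 9.91, 8.57 and 10.6 against 12.4, 13.1 and 9.27 CPM, with overlap and a difference of 0.25 (95% interval, unadjusted, 0.0012 to 0.50, edgeR adjusted p = 0.0801). Without wild type replicate 3 or the labelled QKO replicate 3 it was called (edgeR adjusted p = 0.0408 and 0.00972). L3mbtl2 read 136, 145 and 142 against 128, 135 and 145 CPM, a difference of -0.05 (95% interval -0.14 to 0.04, edgeR adjusted p = 0.378). Auts2 read 20.0, 19.1 and 19.8 against 22.4, 20.5 and 22.9 CPM, which did not overlap but missed the threshold (0.17, 95% interval 0.00 to 0.34, edgeR adjusted p = 0.0832).

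The difference between the effects, I53A against its wild type less the labelled QKO libraries against theirs, was an interaction term in a fit on all 12 libraries. EdgeR called it for 5 of the 9 members, 3 higher and 2 lower, where it called 36.1% of 16501 genes (18.0% higher and 18.1% lower). The median over the members was -0.03, and over all genes 0.001. Each mutant is present in only 1 set, so a difference between mutations cannot be told apart from a difference between sets. The fit also shares its spread between the sets, though replicates differed more in set 1. There chi-square over its degrees of freedom reached 27.3, against at most 4.41 in set 2. Of the members called higher, E2f6 differed by 1.6 ± 0.10 on the log2 scale (edgeR adjusted p = 4.26e-08), Kdm2b by 0.81 ± 0.10 (edgeR adjusted p = 2.48e-05) and Bcor by 0.60 ± 0.10 (edgeR adjusted p = 0.000271). Mga differed by -0.61 ± 0.16 (edgeR adjusted p = 0.0112), which reached 0.0503 with no filter on low counts. The rise of Bcorl1 was smaller in I53A by 0.55 ± 0.20 on the log2 scale (difference -0.55, edgeR adjusted p = 0.0433), a call lost on leaving out any of 8 of the 12 libraries (edgeR adjusted p from 0.0632 to 0.0896), namely wild type replicate 3 and I53A replicates 1 and 2 of set 1, and every library of set 2 other than the labelled QKO replicate 2. For Rybp the interval of the difference was -0.23 to 0.18, for L3mbtl2 -0.37 to 0.00, for Yaf2 0.10 to 1.17 and for Auts2 -1.42 to -0.07, unadjusted, with edgeR adjusted p = 0.856, 0.115, 0.0600 and 0.0824. With the replicate block the last 3 were called (edgeR adjusted p = 0.0110 for L3mbtl2, 0.0103 for Yaf2 and 0.000181 for Auts2). Without wild type replicate 3 of set 1, Yaf2 and L3mbtl2 were called (edgeR adjusted p = 0.0185 and 0.0473). Auts2 was called without wild type replicate 1 or 2 or I53A replicate 3 of set 1 (edgeR adjusted p from 0.0339 to 0.0456).

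The subunits that share a complex with the members were read from a list of 22 genes. In I53A, 3 rose and 3 fell (median -0.01), where 35.5% of all genes were called. With the replicate block 8 rose and 5 fell, where 56.6% of all genes were called, a share near that of the partners. Of the catalytic core and PCGF genes, Bmi1 (1.08 ± 0.14 on the log2 scale) and Pcgf5, the partner of Auts2 (1.23 ± 0.12), rose and Rnf2 fell by 1.00 ± 0.08 (edgeR adjusted p = 0.000821, 0.000178 and 5.63e-05). Of the PRC1.6 partners, Tfdp1 read 154, 158 and 162 CPM in wild type against 98.9, 107 and 94.8 CPM in I53A (-0.67 ± 0.07, edgeR adjusted p = 0.000279), so Tfdp1 fell while E2f6 rose, and the dimer partners moved in opposite directions. Wdr5, a WD40 scaffold protein, rose by 0.28 ± 0.09 (edgeR adjusted p = 0.0374), a call lost on leaving out any 1 library other than I53A replicate 3 (edgeR adjusted p from 0.0535 to 0.130). Csnk2a2, a casein kinase subunit of PRC1.3 and PRC1.5, fell by 0.47 ± 0.08 (edgeR adjusted p = 0.00231). Of the PRC1.1 partners, Skp1a and Usp7 did not pass, but with the replicate block Usp7, a deubiquitinase, was called at -0.15 ± 0.03 (edgeR adjusted p = 0.00186). On replicates 1 and 2 alone both were called lower (Skp1a -0.20, Usp7 -0.14, edgeR adjusted p = 0.00367 and 0.0124). Of other partners not called in the main test, the block called Pcgf2 (0.42), Max (0.34), Fbrs (0.43), Csnk2b (0.32) and Pcgf3 (0.20) higher. It called Dcaf7 lower (-0.19, edgeR adjusted p of all these from 5.02e-06 to 0.00193). DESeq2 also called Pcgf2, Max and Fbrs higher (DESeq2 adjusted p = 0.0347, 0.0418 and 0.0411). In the core list, Pcgf1 differed by 0.04 (95% interval -0.46 to 0.54).

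In the libraries labelled QKO, 9 partners rose and 6 fell (median 0.02), where 57.7% of all genes were called. When all 12 libraries shared the spread 4 rose and 4 fell, where 41.4% of all genes were called. Tfdp1 fell from between 433 and 442 CPM to between 299 and 304 CPM (-0.54 ± 0.04, edgeR adjusted p = 2.38e-17), here together with E2f6. Ring1, the second RING gene, fell by 0.68 ± 0.11, and Pcgf3 by 0.37 ± 0.05 (edgeR adjusted p = 1.17e-06 and 3.36e-08). Skp1a, the adaptor of PRC1.1, rose by 0.37 ± 0.04, Max by 0.23 ± 0.05, and Dcaf7, a scaffold of the Auts2 complexes, by 0.44 ± 0.04 (edgeR adjusted p = 2.43e-10, 4.69e-05 and 2.70e-12). The others called were small: Csnk2a1 (0.26), Fbrsl1 (0.32), Fbrs (0.24), Hdac1 (0.16), Pcgf6 (0.14) and Wdr5 (0.11) rose, and Cbx3 (-0.22), Pcgf2 (-0.20) and Rnf2 (-0.18) fell. Of these, Wdr5 lost its call without wild type replicate 1 or the labelled QKO replicate 1 or 2, Fbrs without wild type replicate 1 or the labelled QKO replicate 2, and Pcgf6 without wild type replicate 2 or the labelled QKO replicate 2 (edgeR adjusted p from 0.0531 to 0.269). Sharing the spread over all 12 libraries removed the calls of Wdr5, Fbrs and Pcgf6 as well. It also removed those of Max (edgeR adjusted p = 0.0837), Pcgf2 (0.144), Cbx3 (0.184) and Hdac1 (0.429).

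Germline genes known as targets of PRC1.6 were read from a list of 16. The list was chosen with earlier results of these data known, so its counts beside the shares of all genes are a description and no test. In I53A 12 rose and 2 fell (median log2 fold change 1.45, all genes -0.001), where 18.1% of all genes were called higher and 17.4% lower. In the libraries labelled QKO 11 rose and 3 fell (median 0.47, all genes -0.003), where 28.7% of all genes were called higher and 29.0% lower. In I53A the largest changes were Mael, a piRNA pathway factor (from 8.03 ± 0.462 to 62.5 ± 3.99 CPM, log2 fold change 2.94 ± 0.10), Tex101 (2.78 ± 0.50), Tdrkh (2.50 ± 0.13) and Hsf2bp, a meiotic recombination gene that fell by 2.12 ± 0.13. In the libraries labelled QKO they were Tex101 (2.49 ± 0.35), Slc25a31, a germ cell ADP/ATP carrier (from 1.52 ± 0.167 to 4.76 ± 0.705 CPM, 1.65 ± 0.22), Smc1b, a meiotic cohesin subunit (1.32 ± 0.08), and Taf7l (0.96 ± 0.14). The edgeR adjusted p values of these 8 lay between 1.94e-19 and 0.00413. Tex101 had only 17, 32 and 2 counts in wild type of set 1 and 12, 5 and 7 in wild type of set 2, so its fold changes rest on few reads. In both comparisons 9 genes were called higher, among them Mael, Taf7l, Stk31 and Slc25a31. No share of all genes called higher in both stands beside this count, so it is only a description. Ddx4, the germ cell helicase, went from 21.1 ± 1.48 to 59.6 ± 5.40 CPM in I53A (1.48 ± 0.10) and from 50.7 ± 2.14 to 35.9 ± 1.14 CPM in set 2 (-0.49 ± 0.06), the same opposite directions as E2f6 (edgeR adjusted p = 2.96e-05 and 3.35e-09). Zcwpw1 also rose in I53A (0.66) and fell in set 2 (-0.28, edgeR adjusted p = 0.000998 and 0.000471). The share of all genes with such opposite calls was not taken, and a link to E2f6 was not tested. Chpt1 exons cover 52.2% of the counted length of Sycp3 and Pilra exons 18.4% of that of Zcwpw1, so their reads are uncertain.

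An E-box was found before the start of 10 of the 16 germline genes, where 6.86% of the 27025 genes with windows hold one in any window. The E2F letters were found in 5, where 18.8% of genes hold them, and 3 genes held both in 1 window, against 1.69%. Both motifs contain a CpG, and the germline windows hold a median of 18 CpG pairs against 6 over all windows. The genes were also listed as known targets of PRC1.6, whose Mga and Max bind the E-box. The shares of all genes are therefore not a like background. The windows of Mael, with both, and of Slc25a31, with the E-box alone, are shown as targets that rose in both comparisons (RefSeq, GRCm38.p6, chr1:166238745-166238994, minus strand, and chr3:40708621-40708870, plus strand). Capitals mark CACGTG and GCGGGA or its reverse complement TCCCGC.
Mael: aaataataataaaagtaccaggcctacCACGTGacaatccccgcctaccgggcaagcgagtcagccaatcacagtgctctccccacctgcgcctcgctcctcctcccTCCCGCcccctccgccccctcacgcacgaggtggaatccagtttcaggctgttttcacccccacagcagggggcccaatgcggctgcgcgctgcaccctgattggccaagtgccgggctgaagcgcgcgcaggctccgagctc
Slc25a31: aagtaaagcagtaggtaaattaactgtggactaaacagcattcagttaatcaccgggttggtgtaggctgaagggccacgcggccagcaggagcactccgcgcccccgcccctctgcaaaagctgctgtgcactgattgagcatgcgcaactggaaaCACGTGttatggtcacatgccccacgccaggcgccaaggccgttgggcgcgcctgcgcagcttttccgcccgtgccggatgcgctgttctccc
In I53A 8 of the 10 genes with an E-box rose and 1 fell, and 4 of the 6 without one rose and 1 fell. In the libraries labelled QKO the counts were 7 and 2 of 10, and 4 and 1 of 6. These counts do not separate the genes by the motif.

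**Figure D4:**
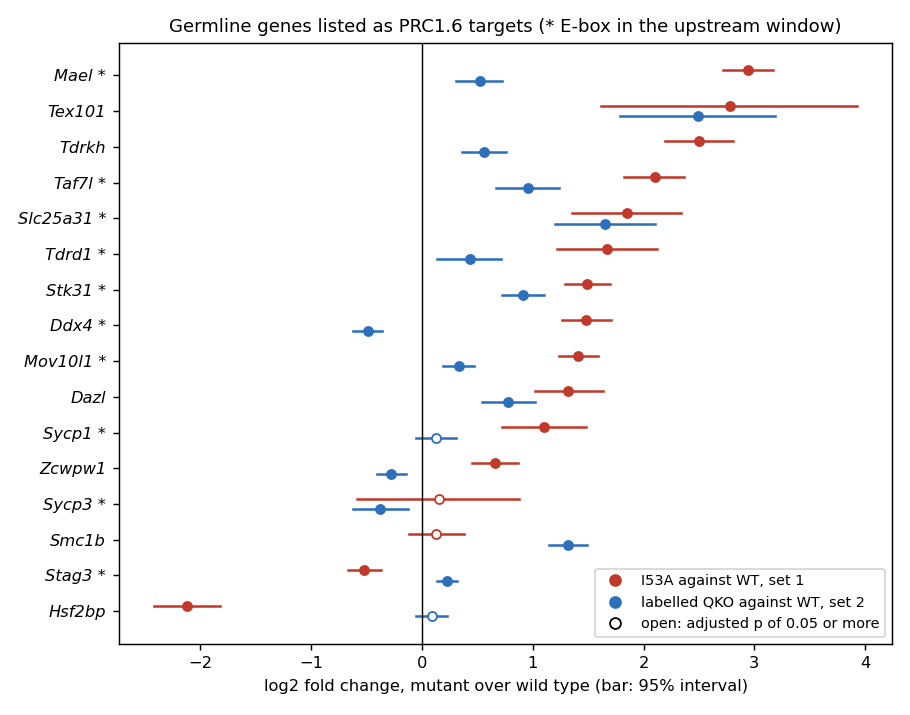
Log2 fold change (x axis) of 16 germline genes known as PRC1.6 targets (y axis) in I53A against wild type of set 1 (red) and in libraries labelled QKO against wild type of set 2 (blue). Bars are 95% intervals, open points did not pass edgeR's test, and asterisks mark genes with an E-box. In I53A 12 genes were called higher, from Mael at 2.94 downwards, and Hsf2bp fell by 2.12.

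The genes whose profile lay nearest to each called member were found by the root mean square difference of log2 CPM over the 12 libraries, each profile centred within its set, among 12421 genes. Nearest to E2f6 were Plaur, the urokinase receptor gene (0.0690), and Kdelr3 (0.0813). They rose in I53A (1.01 and 1.05) and fell in the libraries labelled QKO (-0.51 and -0.58). The same 12 libraries chose the nearest genes, so directions shared with a member are built in, here and below. Nearest to Bcorl1 were Ccnd2, a D-type cyclin (0.142), and the collagen gene Col1a1 (0.168). Col1a1 is also on the fibroblast marker list and was called higher in both comparisons (1.26 and 1.48 on the log2 scale). Mga had Clcn3 (0.0626) and Pcm1 (0.0664), Kdm2b had Itpr3 (0.0411) and Clic4 (0.0479), and Bcor had Dennd2a (0.0566) and Aars2 (0.0639). Yaf2, with as few as 86 counts in a library, had Scap (0.150) and Tex15 (0.165). Rybp had Chic2 (0.0267) and Utp20 (0.0495), and L3mbtl2 had Socs7 (0.0287) and Clk2 (0.0386), values that are small because these profiles are nearly flat.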

How the data were processed

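Each RNA library has its own table of unscaled counts per gene as deposited. These came from featureCounts (version 1.6.3, per the file headers), run for paired reads against GENCODE M1 (mm9) with gene names as the unit and no option for strand or shared reads, so reads in overlapping exons can be lost. Names of the set 1 alignments hold the words TopHat and unique, unlike those of set 2, per the file headers. Per the submitters' processing notes, HISAT2, featureCounts and DESeq2 were used, with no versions given.

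Groups were taken from sample titles. Counts were scaled by TMM and tested with edgeR version 4.0.16 in R version 4.3.3 (quasi-likelihood, robust, filterByExpr, two-sided, Benjamini-Hochberg over all genes tested, threshold 0.05), on the 6 libraries of each set, and on all 12 for the difference between effects. SE is the log2 fold change divided by the root of F, and 95% intervals are unadjusted. CPM values printed use TMM over all 12 libraries. The scripts were tested on simulated data. In set 1 same-numbered libraries deviated together (correlations 0.503, 0.508 and 0.711 across genes). Replicates 1 and 2 also correlated across numbers (0.345 and 0.435), while replicate 3 against either gave -0.607 to -0.534. Replicate 3 thus stood apart, and pairing by number within replicates 1 and 2 is not clear. The main test of set 1 holds no term for this shift. No replicate pair was within sampling noise of the other (chi-square over its degrees of freedom from 2.19 upwards). In set 1 it was 2.93 and 4.06 between replicates 1 and 2, and 21.2 to 27.3 for pairs with replicate 3. Alternatives were DESeq2 version 1.42.0, RLE factors, 2 filters, a replicate block, each library left out, a shared spread, and replicates 1 and 2 alone.

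Named genes are all members, every partner gene called, up to 4 germline genes per comparison with the largest changes, and the 2 genes nearest to each called member among genes without provisional names. Others named (Ddx4, Zcwpw1, the markers of other cell types and of pluripotency, Pcgf1, Skp1a, Usp7 and Csnk2b, and Stk31 beside Mael, Taf7l and Slc25a31) were chosen after their values were seen. The members and lists were chosen with earlier results of these data known. Chromatin data were not used here.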

Additional observations from a re-analysis of the deposited data

How the results depend on the processing

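In I53A against wild type, 105 of 117 values of single members under alternatives kept their direction and their side of the threshold, as did 103 of 108 in set 2 and 132 of 153 for the difference between effects. No member reversed within a set. For the difference, Rybp changed sign without wild type replicate 3 of set 1 (0.00) and without I53A replicate 3 (0.04), and ranged from -0.08 to 0.04 as each library was left out, with edgeR adjusted p of at least 0.562. Leaving out 1 library moved the members called lower in I53A between 1 and 2, those called higher in set 2 between 1 and 3, and those called lower for the difference between 1 and 3. With all 12 libraries sharing the spread, 1 member was called higher in set 2. For the difference, 1 member was called lower with no filter on low counts and 4 with the replicate block. In I53A the replicate block called 4371 genes higher and 4427 lower, and replicates 1 and 2 alone called 4197 higher and 4146 lower, with 5 members higher and 3 lower. Apart from Auts2 in I53A, and L3mbtl2, Yaf2 and Auts2 for the difference, the block changed no member's call. In set 2, whose numbers do not pair the libraries (correlations of 0.034, -0.012 and 0.137), the block left the members called at 2 higher and 4 lower. The causes of these shifts were not tested. Depth limits Yaf2, with 86 to 275 counts per library.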
